A study of Mus musculus with 21 samples.

Results

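The 10 naive pluripotency genes described here are Nanog, Klf2, Klf4, Klf5, Esrrb, Tfcp2l1, Zfp42, Tbx3, Dppa5a and Prdm14. They were taken by symbol from count tables of 48321 symbols each, and all 10 were present and were among the 14311 genes tested. The samples were day 3 embryoid bodies, aggregates in which mouse embryonic stem cells differentiate, grown from A2loxCre cells (strain label C57BL/6), a line with a single-site, doxycycline-inducible integration system. There were 21 samples in 7 groups of 3. The control group was the parental A2loxCre line with doxycycline. The other 6 groups came from lines with an integrated construct: the TWIST1 monomer without doxycycline, the monomer with doxycycline, and, all with doxycycline, the TWIST1 homodimer and TWIST1 joined to TCF3, TCF4 or TCF12. They are called parental cells, the untreated and the induced monomer line, the homodimer line, the TCF4 line and, for reasons given with the construct levels, the TCF3-labelled and TCF12-labelled samples. Constructs were induced for 16 h before collection. The embryoid body medium held serum and no leukaemia inhibitory factor is listed in it, while the stem cells had been kept with that factor. Each construct is labelled as a single genotype and the labels give no clone numbers, so a line and its construct cannot be told apart, except for induction within the monomer line. As there are no parental samples without doxycycline, TWIST1 induction and doxycycline itself cannot be told apart there. Nothing in the labels says that the 3 samples of a group came from separate cultures, so p-values measure the spread between these samples, which may be technical.

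Naive pluripotency is the state of the pre-implantation epiblast and of mouse embryonic stem cells kept with leukaemia inhibitory factor. It rests on a set of transcription factors that act on each other's genes and that receive input from STAT3, from Wnt signalling through release of the repressor Tcf7l1, and from low ERK activity. When stem cells leave this state in embryoid bodies, most of these factors are shut down while the core factors Oct4 (Pou5f1) and Sox2 persist longer.

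Nanog and Zfp42 had different profiles over the 7 groups, as given after the sequences, and Klf4, like Zfp42, was highest in the monomer line. Their promoters are shown because they let the reader see which motifs these 3 genes hold next to their start. RefSeq promoter windows on GRCm38.p6 were matched for 6 of the 10 genes (Nanog, Klf2, Klf4, Esrrb, Tfcp2l1 and Zfp42). Each line gives 250 bases upstream of the gene start, 5′ to 3′ on the strand of the gene. The windows lie at chr6:122707239-122707488, plus strand for Nanog, chr8:43307010-43307259, minus strand for Zfp42 and chr4:55532476-55532725, minus strand for Klf4. Capitals mark the E-box CANNTG, the motif class bound by TWIST1 and E-proteins, and the octamer core TTTGCAT, bound by Oct4, both searched on both strands. In Nanog the capitals that start with the octamer core run on over a composite motif described after the sequences.
Nanog: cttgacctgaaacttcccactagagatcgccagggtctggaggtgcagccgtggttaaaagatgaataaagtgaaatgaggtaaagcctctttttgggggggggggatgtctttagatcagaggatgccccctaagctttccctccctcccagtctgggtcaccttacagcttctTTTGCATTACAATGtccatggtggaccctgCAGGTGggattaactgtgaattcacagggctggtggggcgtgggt
Zfp42: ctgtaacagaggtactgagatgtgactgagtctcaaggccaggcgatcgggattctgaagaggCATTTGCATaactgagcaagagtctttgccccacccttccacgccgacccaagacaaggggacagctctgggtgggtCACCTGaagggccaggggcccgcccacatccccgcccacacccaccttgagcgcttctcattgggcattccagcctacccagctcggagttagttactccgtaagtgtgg
Klf4: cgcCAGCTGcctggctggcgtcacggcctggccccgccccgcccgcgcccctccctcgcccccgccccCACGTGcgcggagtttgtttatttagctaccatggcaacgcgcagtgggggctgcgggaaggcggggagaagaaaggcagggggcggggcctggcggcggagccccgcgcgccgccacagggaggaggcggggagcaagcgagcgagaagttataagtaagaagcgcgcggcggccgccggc
In the Nanog window the octamer core runs on, after any base, into ACAATG, which together form the composite motif of Oct4 and Sox2. The search took these exact letters, which are those of the Nanog site, with any base at the open position. They were found in 1 of 27025 windows of this length (0.0037%), the Nanog window itself. Composite sites with other letters were not searched, so the share of windows with such a site is not known. The octamer core was in the windows of Nanog and Zfp42 and in 4.07% of all windows. In Zfp42 the capitals of an E-box and of the octamer core overlap and form 1 run. An E-box was in 5 of the 6 windows, all except that of Klf2, and in 66.1% of all windows. The E-box form CAGGTG or CACCTG was in Nanog, Tfcp2l1 and Zfp42 and in 17.1% of all windows. The forms CATCTG or CAGATG (14.5% of all windows) and CATATG (3.48%) were in none of the 6, and CAGCTG (12.7%) was in Klf4. These matches describe letters in the windows and no binding was measured here.

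Total counts per sample ran from 6648842 to 15999693. Twist1, the gene of the construct, had mean levels of 8.10 CPM (counts scaled to the library total) in parental cells and 5.07 CPM in the untreated monomer line. It stood at 612 CPM in the induced monomer line, 182 CPM in the homodimer line and 39.4 to 55.1 CPM in the 3 lines with an E-protein. Tcf4 was at 330 CPM in the TCF4 line and at 33.2 to 52.1 CPM in the other groups. Tcf3 was not higher in the TCF3-labelled samples (154 CPM) than in parental cells (167 CPM). Tcf12 had similar means in the TCF12-labelled samples (92.9 CPM) and TCF3 dimer (104 CPM), so these groups are called TCF3-labelled and TCF12-labelled. Sample 1 of the TCF12-labelled samples stood apart from samples 2 and 3. The biological coefficient of variation of the whole fit was 0.12 with that sample and 0.0539 without it. Calls that change when it is left out are given both ways beside the counts of each comparison.

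All 10 genes differed among the 7 groups (edgeR quasi-likelihood test of any difference, largest adjusted p 7.6e-04, for Dppa5a), against 50.7% of all genes tested. In 9 of 9 genes other than Nanog, the untreated monomer line had the highest group mean. Its samples overlapped those of the next group in Klf5, Esrrb, Tfcp2l1, Tbx3, Dppa5a and Prdm14. The induced monomer line had rank 2 in 8 of these 9 and the TCF3-labelled samples rank 3 in 8. The lowest mean was in the TCF4 line in 5 and in the TCF12-labelled samples in 4. The samples of these 2 groups overlapped in Klf2, Klf5, Esrrb, Tfcp2l1, Zfp42 and Prdm14. For Dppa5a the rank of the TCF12 label rests on its sample 1 (955.5 CPM). Its samples 2 and 3 (339.7 and 314.3 CPM) lay under the TCF4 mean of 340.8 CPM. Nanog had another order, with parental cells on top. The share of all genes with these ranks was not counted. These RNA levels are from whole embryoid bodies, so fewer cells that express a gene and less RNA per cell cannot be told apart.

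**Figure D1:**
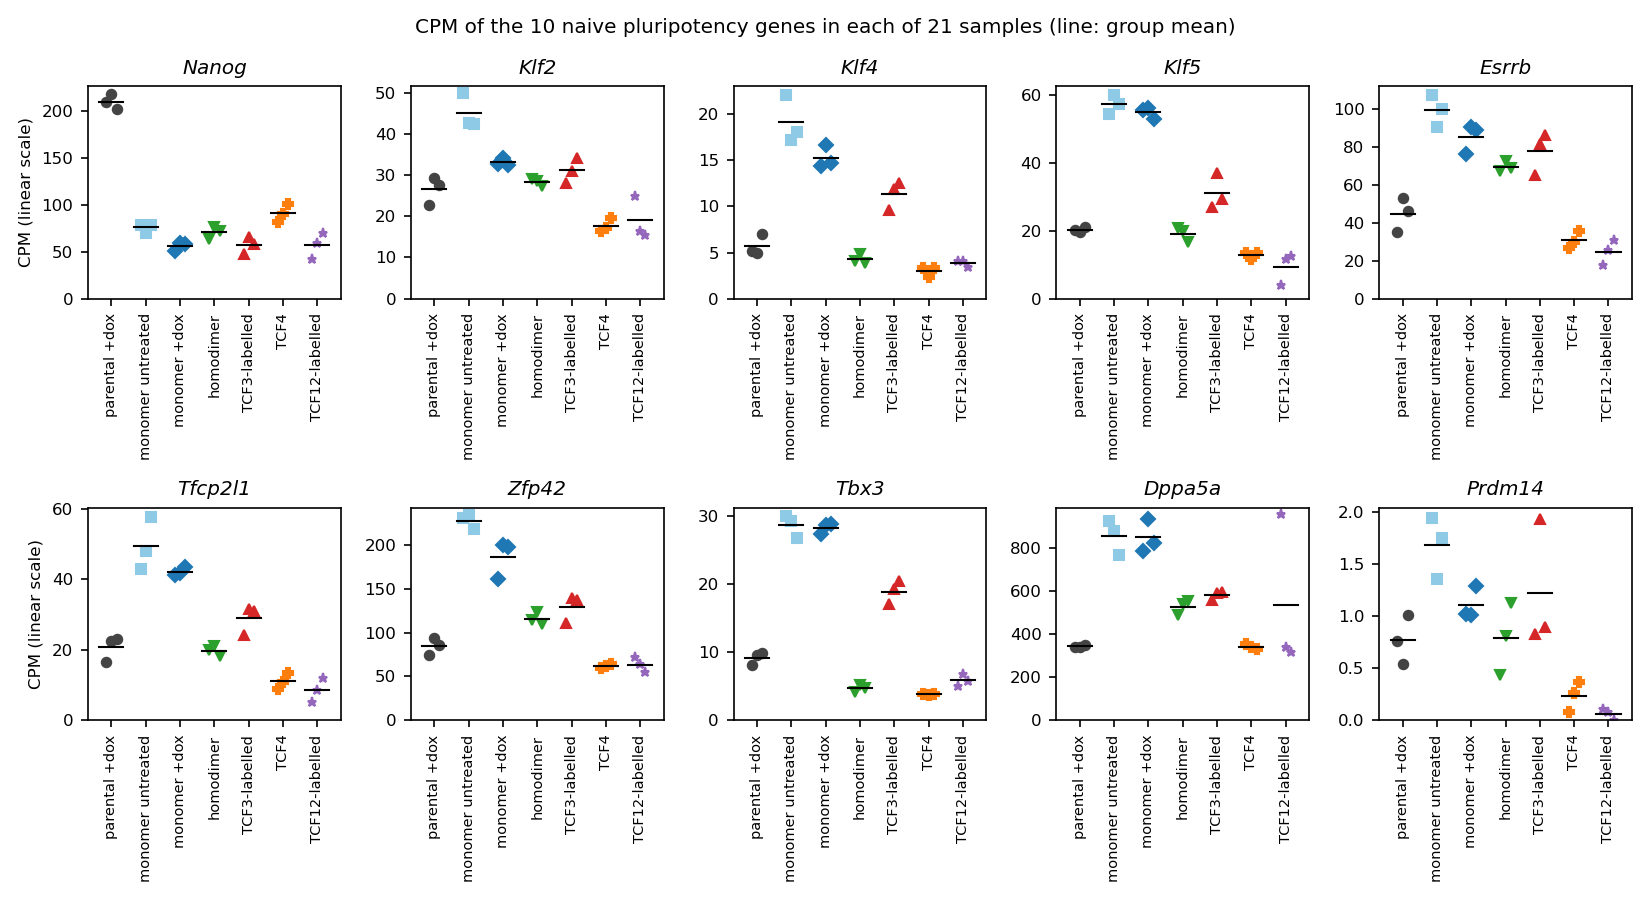
Level in CPM on a linear axis from 0 (vertical) of each of the 10 genes in the 7 groups (horizontal), with 1 point per sample and a line at the group mean. Nanog is highest in parental cells (201.9 to 218.2 CPM), the other 9 genes are highest in the monomer line, and sample 1 of the TCF12-labelled group is apart for Dppa5a (955.5 CPM).

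Nanog, a homeobox factor that sustains self-renewal, lies at chr6:122707489-122714633 on the plus strand (GRCm38). Its levels in samples 1 to 3 were 210.2, 218.2 and 201.9 CPM in parental cells. They were 78.8, 70.06 and 78.91 CPM in the untreated and 51.14, 59.34 and 58.6 CPM in the induced monomer line. All parental samples therefore lay far above both monomer groups. In the homodimer line Nanog stood at 63.7, 76.56 and 71.92 CPM and in the TCF4 line at 81.84, 90.55 and 101.3 CPM. The TCF3-labelled samples had 47.06, 65.23 and 58.31 CPM and the TCF12-labelled samples 42.76, 59.74 and 69.48 CPM. No sample of any construct line reached the parental range, and the TCF4 line was the highest of them. Against parental cells Nanog fell in all 6 groups, with log2 fold changes from -1.20 ± 0.14 (SE) in the TCF4 line (adjusted p 5.6e-06) to -1.90 ± 0.14 in the induced monomer line (adjusted p 1.5e-08). It was lower by this test in the monomer line without doxycycline too (-1.47 ± 0.14, adjusted p 4.1e-07). Rows for the pseudogenes Nanog-ps1 and Nanog-ps2 were listed at 0 counts in every sample.

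The primitive streak markers T, Mixl1, Eomes, Gsc and Evx1 had the same split between parental cells and the rest. Their summed level was 173.5 to 207.1 CPM in parental cells and 14.78 to 37.36 CPM over all other samples, and 5 of 5 fell in each of the 6 comparisons with it. Their part in the Nanog result was not tested.

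Klf2, Klf4 and Klf5 are zinc finger factors of the Krueppel-like family with overlapping roles in self-renewal, and Klf4 is a known target of STAT3. Klf4 (chr4:55527137-55532475, minus strand) had 5.117, 4.98 and 7.054 CPM in parental cells. It had 22.1, 17.23 and 18.14 CPM in the untreated and 14.43, 16.63 and 14.7 CPM in the induced monomer line. The monomer samples thus did not overlap the parental ones, and neither did the TCF3-labelled samples with 9.659, 11.9 and 12.59 CPM. Klf4 levels were 4.096, 4.841 and 3.904 CPM in the homodimer line, 3.299, 2.306 and 3.341 CPM in the TCF4 line, and 4.087, 4.097 and 3.385 CPM in the TCF12-labelled samples. These 3 groups all lay under the lowest parental sample. Klf4 rose by 1.73 ± 0.16 (SE) on the log2 scale in the untreated monomer line (adjusted p 2.2e-07) and by 0.99 ± 0.16 in the TCF3-labelled samples (adjusted p 1.2e-04). It fell in the TCF4 line (-0.93 ± 0.18, adjusted p 0.0017) and in the TCF12-labelled samples (-0.58 ± 0.18, adjusted p 0.026), and its value in the homodimer line was -0.42 ± 0.18 (adjusted p 0.2).

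Klf5 (chr14:99298691-99313412, plus strand) stood at 20.14, 19.7 and 21.16 CPM in parental cells. Both monomer groups were at 52.91 to 59.93 CPM with overlapping samples. The homodimer line had 20.91, 19.99 and 16.65 CPM and overlapped parental cells. The TCF3-labelled samples had 27.16, 37.11 and 29.24 CPM, the TCF4 line 13.43, 11.53 and 13.48 CPM, and the TCF12-labelled samples 4.087, 11.55 and 12.49 CPM. Sample 1 of the last group was the lowest of all 21. Klf5 rose in the monomer line (log2 fold change 1.50 ± 0.21 untreated, adjusted p 3.6e-05) and in the TCF3-labelled samples (0.61 ± 0.21, adjusted p 0.034). It fell in the TCF12-labelled samples (-1.09 ± 0.23, adjusted p 0.0017), and its value in the TCF4 line was -0.66 ± 0.22 (adjusted p 0.054).

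Klf2 (chr8:72319062-72321654, plus strand) had the narrowest span of the 3 Krueppel-like genes. It had 22.75, 29.34 and 27.71 CPM in parental cells and 50.04, 42.81 and 42.53 CPM in the untreated monomer line. The induced monomer line had 32.73, 34.16 and 32.63 CPM, under every untreated sample and above every parental one. Klf2 was at 27.33 to 29.1 CPM in the homodimer line and 28.23 to 34.35 CPM in the TCF3-labelled samples. The TCF4 line had 16.42, 17.17 and 19.56 CPM and the TCF12-labelled samples 25.05, 16.55 and 15.48 CPM, of which sample 1 reached the parental range. Klf2 rose in the untreated monomer line (0.76 ± 0.14, adjusted p 6.5e-04) and fell in the TCF4 line (-0.58 ± 0.14, adjusted p 0.0094) and the TCF12-labelled samples (-0.49 ± 0.14, adjusted p 0.017). Klf2 and Zfp42 both lie on chromosome 8, where the other 738 tested genes had median shifts of -0.113 in the untreated monomer line and 0.078 in the TCF4 line relative to the other chromosomes. The same shifts were -0.112 for the monomer with doxycycline, 0.064 for the homodimer line, and -0.090 and 0.111 in the TCF3-labelled and TCF12-labelled samples. Their part in the values of Klf2 and Zfp42 was not tested.

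Esrrb, an orphan nuclear receptor gene that Tcf7l1 represses, lies at chr12:86361117-86521628 on the plus strand. It had 34.95, 52.72 and 46.05 CPM in parental cells and 107.4, 90.1 and 99.59 CPM in the untreated monomer line. The induced monomer line had 76.03, 90.47 and 88.76 CPM, the homodimer line 67.15, 72.35 and 68.53 CPM, and the TCF3-labelled samples 64.89, 81.54 and 86.33 CPM. All of these lay above the highest parental sample. The TCF4 line (26.63, 29.73 and 35.72 CPM) overlapped parental cells at 1 sample, and the TCF12-labelled samples (17.61, 25.73 and 30.63 CPM) lay under it. Esrrb rose in the untreated (1.15 ± 0.17, adjusted p 6.4e-05) and induced monomer line (0.93 ± 0.17, adjusted p 4.7e-04), the homodimer line (0.64 ± 0.17, adjusted p 0.02) and the TCF3-labelled samples (0.80 ± 0.17, adjusted p 0.0013). It fell in the TCF4 line (-0.54 ± 0.17, adjusted p 0.046) and the TCF12-labelled samples (-0.85 ± 0.17, adjusted p 0.0015).

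Tfcp2l1, a CP2-family factor and a target of STAT3, lies at chr1:118627923-118685168 on the plus strand. Its parental levels were 16.44, 22.63 and 23.18 CPM, and the homodimer line (18.19 to 20.98 CPM) lay within that range. The untreated monomer line had 42.89, 48.03 and 57.84 CPM and the induced 41.25, 41.81 and 43.68 CPM. The TCF3-labelled samples had 24.19, 31.56 and 31.03 CPM. These groups were above parental cells, whereas the TCF4 line (8.797, 10.93 and 13.36 CPM) and the TCF12-labelled samples (5.24, 8.44 and 12.09 CPM) were below it. Tfcp2l1 rose in the monomer line (1.26 ± 0.20 untreated, adjusted p 1.3e-04) and fell in the TCF4 line (-0.90 ± 0.21, adjusted p 0.0061) and the TCF12-labelled samples (-1.25 ± 0.22, adjusted p 3.2e-04). Its value in the TCF3-labelled samples was 0.48 ± 0.20 (adjusted p 0.083).

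Zfp42, which encodes the zinc finger protein Rex1 and is widely used as a marker of the naive state, lies at chr8:43295067-43307009 on the minus strand. It had 74.03, 93.86 and 85.86 CPM in parental cells and 230.9, 234.2 and 219.1 CPM in the untreated monomer line. The induced monomer line had 161.4, 200.7 and 198.2 CPM, the homodimer line 114.1, 123.4 and 109.9 CPM, and the TCF3-labelled samples 110.7, 139.8 and 137.3 CPM. All of these were above the parental range. The TCF4 line (59.85, 62.27 and 64.51 CPM) and the TCF12-labelled samples (72.21, 63.75 and 54.41 CPM) were under it. Zfp42 rose in the untreated monomer line (1.43 ± 0.11, adjusted p 3.5e-08), the homodimer line (0.45 ± 0.11, adjusted p 0.014) and the TCF3-labelled samples (0.61 ± 0.11, adjusted p 4.2e-04). It fell in the TCF4 line (-0.44 ± 0.11, adjusted p 0.013) and the TCF12-labelled samples (-0.42 ± 0.12, adjusted p 0.012).

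**Figure D2:**
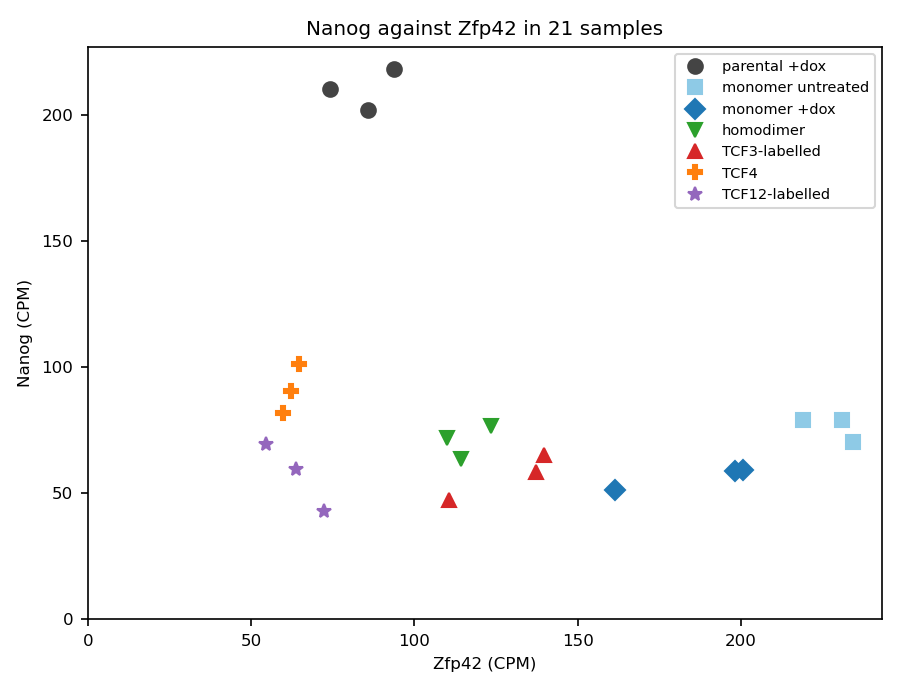
Nanog (vertical) against Zfp42 (horizontal) in CPM, 1 point for each of the 21 samples, with a shape and colour per group. The parental samples have the highest Nanog (201.9 to 218.2 CPM) with Zfp42 at 74.03 to 93.86 CPM, and the untreated monomer samples the highest Zfp42 (219.1 to 234.2 CPM) with Nanog at 70.06 to 78.91 CPM.

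Tbx3, a T-box factor that supports self-renewal and also has a role in the primitive endoderm, lies at chr5:119670534-119684724 on the plus strand. It had 8.056, 9.527 and 9.876 CPM in parental cells. Both monomer groups were at 26.73 to 29.9 CPM and overlapped each other. The TCF3-labelled samples had 17.01, 19.22 and 20.39 CPM, the homodimer line 4.096, 5.11 and 4.726 CPM, the TCF4 line 3.77, 3.673 and 3.888 CPM, and the TCF12-labelled samples 5.031, 6.801 and 5.723 CPM. The monomer line and the TCF3-labelled samples lay above parental cells and the other 3 groups below it, with no overlap. Tbx3 rose in the untreated monomer line (1.64 ± 0.11, adjusted p 4.5e-09) and the TCF3-labelled samples (1.04 ± 0.11, adjusted p 8.0e-07). It fell in the homodimer line (-0.97 ± 0.13, adjusted p 3.7e-05), the TCF4 line (-1.27 ± 0.13, adjusted p 9.4e-07) and the TCF12-labelled samples (-0.64 ± 0.12, adjusted p 8.7e-04). The antisense row Tbx3os1 held at most 2 counts in any sample.

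Dppa5a, a small KH-domain gene of early embryos and stem cells, lies at chr9:78367052-78368199 on the minus strand. Its exons sum to 0.619 kb, and per kb of exon it had the highest mean of the 10 genes in parental cells (555 CPM per kb, before Nanog at 93.7 and Zfp42 at 44.97). It had 341, 341.5 and 348.3 CPM in parental cells, 925.2, 879.2 and 765.2 CPM in the untreated monomer line, and 783.9, 936.2 and 824.5 CPM in the induced one. The homodimer line had 489.6, 537.1 and 554.6 CPM, and the TCF3-labelled samples 559.5, 590 and 594.3 CPM. All of these exceeded parental cells. The TCF4 line (330.8 to 353.4 CPM) overlapped parental cells. The TCF12-labelled samples had 955.5, 339.7 and 314.3 CPM, so that sample 1 was the highest of all 21 and the other two were under the parental range. Dppa5a rose in the untreated monomer line (1.32 ± 0.27, adjusted p 0.0013) and the TCF3-labelled samples (0.76 ± 0.26, adjusted p 0.037). Its value in the homodimer line was 0.62 ± 0.26 (adjusted p 0.18), and 0.62 with an adjusted p of 3.8e-09 without sample 1 of the TCF12-labelled group. In the TCF12-labelled samples the value was 0.64 ± 0.26 (adjusted p 0.075), and -0.07 (adjusted p 0.46) without that sample.

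Prdm14, a PR-domain zinc finger gene that acts against FGF signalling and DNA methylation and is needed in the germ line, lies at chr1:13113428-13127163 on the minus strand. It had the lowest counts of the 10, with 0 to 22 per sample and 5 samples at 3 counts or fewer. Samples 1 to 3 held 7, 5 and 10 counts in parental cells, 12, 13 and 18 in the untreated monomer line, and 9, 9 and 12 in the induced one. The homodimer line held 4, 9 and 11, the TCF3-labelled samples 10, 22 and 11, the TCF4 line 1, 3 and 6, and the TCF12-labelled samples 1, 1 and 0. The last 2 groups thus held the fewest. The 2 counts in the TCF12-labelled samples against 22 in parental cells give a scaled ratio of 0.0755 (95% exact interval 0.0086 to 0.307, counting error only). Prdm14 was lower there by the edgeR test (adjusted p 0.0019), a call that rests on these counts. The gene passed the filter on low counts only through its higher groups. Its calls against the TCF4 line and the TCF12-labelled samples, in this and other comparisons, are therefore not taken as support. It was not tested in a fit of those 2 groups alone, and its fitted fold change is not used as a size. In the TCF4 line its value was -1.62 ± 0.54 (adjusted p 0.053), and in the untreated monomer line 1.09 ± 0.40 (adjusted p 0.066).

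Sample 1 of the TCF12-labelled group differed from the mean of samples 2 and 3 by log2 ratios from -1.45 for Klf5 (summed exons 5.2 kb) to 1.55 for Dppa5a (0.619 kb). The 4 genes with exons over 5 kb (Klf5, Esrrb, Tbx3 and Tfcp2l1) had ratios of -1.45, -0.66, -0.29 and -0.91. The 3 shortest (Dppa5a, Klf2 and Zfp42) had 1.55, 0.63 and 0.29. Nanog, at 2.24 kb, had -0.59. In these libraries the long genes were therefore lower and the shortest higher in sample 1, and the part of gene length in this was not tested.

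**Figure D3:**
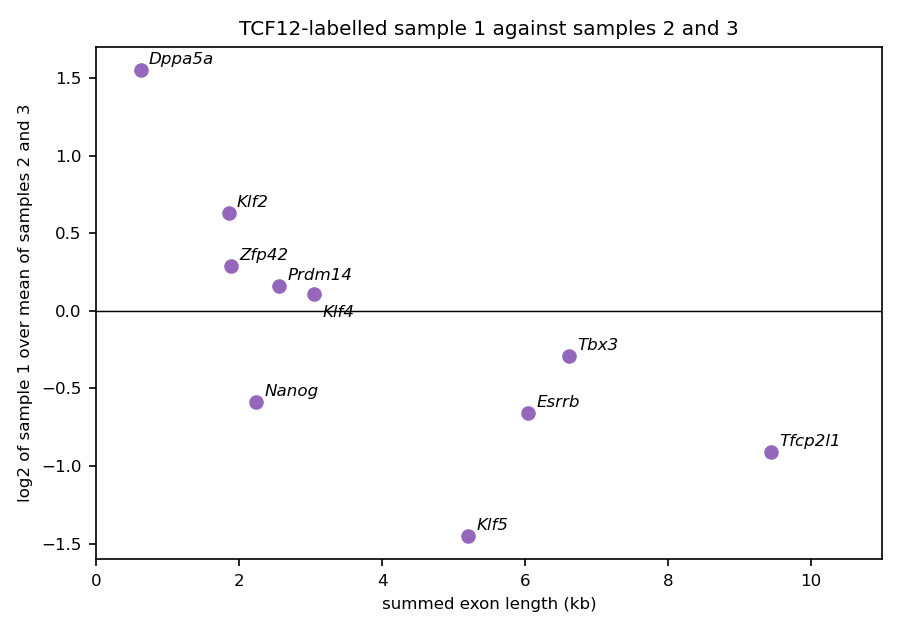
Log2 ratio of sample 1 to the mean of TCF12-labelled samples 2 and 3 (vertical) against summed exon length in kb (horizontal), 1 point per gene. Dppa5a is at the top left (1.55 at 0.619 kb) and Klf5 lowest (-1.45 at 5.2 kb).

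The comparisons with parental cells share their 3 samples, and their counts are given side by side. In the untreated monomer line 8 of the 10 genes rose and 1 fell, against 10.5% of all genes tested that rose and 9.43% that fell (19.9% in either direction). In the induced monomer line 7 rose and 1 fell (10.8% and 9.22% of all genes, 20.0% in either direction). The medians of the 10 log2 fold changes were 1.29 and 1.08, beside 0.00 and 0.01 over all genes. Esrrb and Zfp42 rose and Nanog and Tbx3 fell in the homodimer line (4.81% and 4.02% of all genes, 8.84% in either direction), with a median of -0.02. In the TCF3-labelled samples 6 rose and 1 fell (16.3% and 12% of all genes, 28.3% in either direction), with a median of 0.62. None rose and 7 fell in the TCF4 line (7.18% and 5.67% of all genes, 12.9% in either direction), with a median of -0.78. None rose and 9 fell in the TCF12-labelled samples (15.5% and 11.5% of all genes, 27.0% in either direction), with a median of -0.74. The 9 include Prdm14, and 8 fell without counting it. In a fit of those 2 groups alone, 1 of 9 genes tested passed (Nanog), and the calls over all genes tested fell there from 3864 of 14311 to 824 of 13497. The 9 genes other than Nanog therefore had parental cells between the monomer line and the TCF4 line in their group means. Several of these calls are lost when a single library is left out. For the TCF3 label they are Klf5 (adjusted p up to 0.17, without any parental sample or TCF3 sample 2 or 3) and Dppa5a (up to 0.099, in 9 of 21 cases). For the TCF4 line they are Esrrb (up to 0.24, in 15 of 21 cases), Klf2 (0.061, without parental sample 2) and Zfp42 (up to 0.09, without parental sample 2 or TCF4 sample 1). In the homodimer line they are Esrrb (up to 0.13, without parental sample 1 or 3 or homodimer sample 2 or 3) and Zfp42 (up to 0.096, without parental sample 1 or homodimer sample 2). For the TCF12 label they are Klf2 (up to 0.083, without parental sample 2 or 3 or TCF12 sample 2), Klf4 (up to 0.17, without parental sample 3 or TCF12 sample 3) and Zfp42 (0.073, without parental sample 2).

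Induction within the monomer line was the only comparison in which the line stayed the same. Here 0 of the 10 genes passed (edgeR), against 2.00% of all genes in either direction (1.52% higher, 0.475% lower), while 4 had an unadjusted p under 0.05, and DESeq2 also called 0. The median of the 10 log2 fold changes was -0.26, beside -0.01 over all genes. The largest values were -0.58 ± 0.38 for Prdm14 (adjusted p 0.79), -0.44 ± 0.14 for Klf2 (adjusted p 0.15) and -0.43 ± 0.14 for Nanog (adjusted p 0.19). Without sample 1 of the TCF12-labelled group, 3 genes passed as lower: Klf2 (-0.43, adjusted p 0.0012), Nanog (-0.43, adjusted p 0.0037) and Zfp42 (-0.29, adjusted p 0.022). The calls over all genes rose there too, from 286 to 890 (2.00% to 6.17%), of which 68 and 373 were lower. The 8 rises of the untreated monomer line over parental cells were found in samples without doxycycline, while the parental samples had it. That comparison therefore differs in both line and doxycycline, and these 2 cannot be told apart in it.

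**Figure D4:**
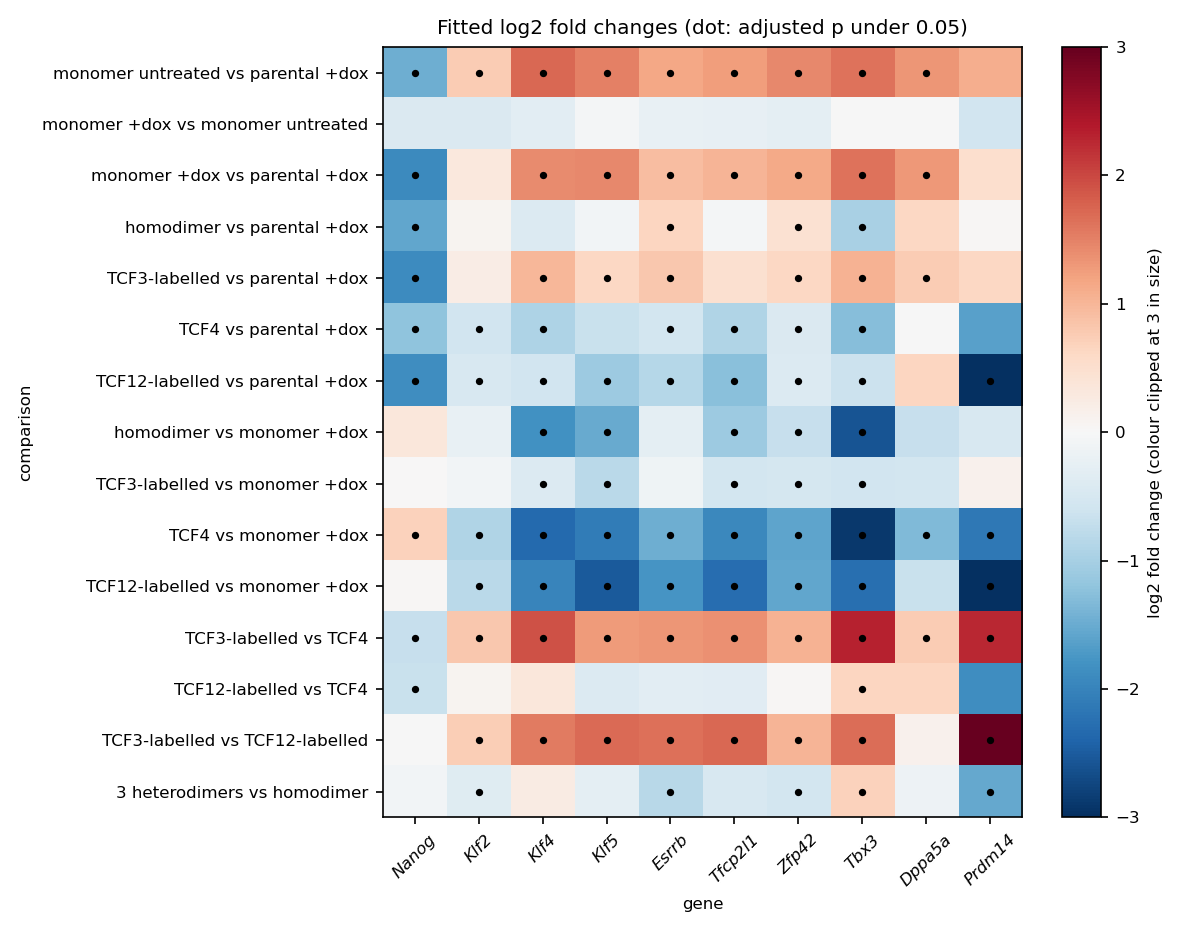
Fitted log2 fold changes as colour (red higher, blue lower in the first-named group, clipped at 3 in size) for 15 comparisons (vertical) and 10 genes (horizontal), with a dot where the adjusted p is under 0.05. Every induced construct line but the TCF4 and TCF12-labelled ones has dots in red against parental cells, the Nanog column is blue against parental cells throughout, and the Prdm14 values for the TCF12 label rest on 2 counts.

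Against the induced monomer line, with doxycycline in both groups, none of the 10 rose and 5 fell in the homodimer line (9.15% and 9.31% of all genes rose and fell, 18.5% in either direction). The 5 were Tbx3 (-2.60 ± 0.12, adjusted p 3.0e-11), Klf4 (-1.82 ± 0.17), Klf5 (-1.52 ± 0.21), Tfcp2l1 (-1.10 ± 0.20) and Zfp42 (-0.69 ± 0.11, adjusted p 2.0e-04). Without sample 1 of the TCF12-labelled group 8 passed, with Nanog higher (0.34, adjusted p 0.005) and Esrrb (-0.28, adjusted p 0.04) and Dppa5a (-0.67, adjusted p 2.9e-10) lower in addition, while calls over all genes went from 2642 to 4803. In a fit of those 2 groups alone 9 of 9 genes tested passed, with 4813 calls over all genes. In the TCF3-labelled samples none rose and 5 fell (12.7% and 9.36% of all genes rose and fell, 22.1% in either direction), namely Klf5 (-0.82 ± 0.20), Tbx3 (-0.58 ± 0.10), Tfcp2l1 (-0.55 ± 0.19), Zfp42 (-0.53 ± 0.11) and Klf4 (-0.42 ± 0.15). With sample 1 of the TCF12-labelled group left out, Dppa5a passed too (-0.54, adjusted p 2.0e-08), and calls over all genes went from 3162 to 5896. In the TCF4 line 9 fell and Nanog rose (0.70 ± 0.14, adjusted p 0.001), against 13.0% and 14.5% of all genes and 27.4% in either direction. The 9 include Prdm14, with 10 counts there against 30 in the induced monomer line. In the TCF12-labelled samples 8 fell and none rose (15.5% and 18.1% of all genes, 33.5% in either direction). The 8 include Prdm14, a call that rests on 2 counts in the TCF12-labelled samples. Dppa5a, the gene other than Nanog that was not called there, had -0.66 ± 0.26 (adjusted p 0.059), and -1.37 (adjusted p 5.8e-16) without sample 1, where calls over all genes went from 4799 to 6119. The calls of Klf4 and Tfcp2l1 in the TCF3-labelled samples (adjusted p 0.045 and 0.048) are lost in 13 and 16 of 21 cases with a library left out (adjusted p up to 0.25 and 0.24).

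Between the dimers, 9 of the 10 genes were higher and Nanog lower in the TCF3-labelled samples than in the TCF4 line (11.8% and 7.90% of all genes, 19.7% in either direction). Among them were Tbx3 (2.31 ± 0.12, adjusted p 3.7e-10) and Klf4 (1.91 ± 0.17, adjusted p 1.4e-07). Prdm14 (adjusted p 0.0019) had 43 counts over the 3 TCF3-labelled samples against 10 in the TCF4 line. Dppa5a was nearest the threshold (0.77 ± 0.26, adjusted p 0.045), and its call is lost in 18 of 21 cases with a library left out (adjusted p up to 0.13). Against the TCF12-labelled samples, the TCF3-labelled samples were higher in 8 genes and lower in none (9.71% and 9.06% of all genes, 18.8% in either direction), with Nanog at -0.02 ± 0.14 and Dppa5a at 0.12 ± 0.26. The 8 include Prdm14, with 43 counts against 2. Dppa5a was higher too without TCF12 sample 1 (0.82, adjusted p 1.8e-10), with 3607 in place of 2686 calls over all genes. A fit of those 2 groups alone called 5 and lost Klf2, Klf5 and Prdm14 (adjusted p 0.22, 0.095 and 0.054), with 236 calls over all genes. The TCF12 label and the TCF4 line differed in Tbx3, higher with the TCF12 label (0.64 ± 0.13, adjusted p 0.016), and in Nanog, lower there (-0.67 ± 0.14, adjusted p 0.018), against 2.07% and 1.17% of all genes and 3.24% in either direction. Both calls are lost without TCF4 sample 2 or 3, with adjusted p up to 0.11 for Nanog and 0.072 for Tbx3, and a fit of those 2 groups alone called 0 of the 10 and 0 in place of 464 over all genes. The mean of the 3 E-protein groups against the homodimer line was higher for Tbx3 (0.68 ± 0.11) and lower for Esrrb (-0.83 ± 0.13), Zfp42 (-0.54 ± 0.09) and Klf2 (-0.37 ± 0.11), against 7.99% and 6.04% of all genes and 14.0% in either direction. Prdm14 passed as lower too, but that mean takes in the TCF12-labelled samples with their 2 counts and no size is given. The Klf2 call is lost in 7 of 21 cases with a library left out (adjusted p up to 0.13) and the Prdm14 call without homodimer sample 2 or 3 (up to 0.19). A fit of these 4 groups alone called 3 and lost both (adjusted p 0.11 and 0.096), with 1310 in place of 2007 calls over all genes. Without sample 1 of the TCF12-labelled group 7 passed, with Tfcp2l1 (-0.41, adjusted p 0.011) and Dppa5a (-0.40, adjusted p 2.7e-07) lower in addition, and 4173 calls over all genes. This mean joins the TCF3-labelled samples with groups from which they differed in 10 and 8 of the genes.

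Without sample 1 of the TCF12-labelled group, the number of genes past the threshold in either direction was 10 in place of 9 in the untreated and 9 in place of 8 in the induced monomer line against parental cells. It was 5 in place of 4 in the homodimer line, 9 in place of 7 in the TCF3-labelled samples and in the TCF4 line, and 9 in both cases in the TCF12-labelled samples. The share of all genes called rose in the same fits, from 19.9% to 36.8% in the untreated and 20.0% to 35.2% in the induced monomer line. It went from 8.84% to 20.4% for the homodimer, from 28.3% to 46.5% with the TCF3 label, from 12.9% to 28.1% in the TCF4 line and from 27.0% to 30.3% with the TCF12 label. The genes gained were Prdm14 in the untreated (1.08, adjusted p 0.033) and Klf2 in the induced monomer line (0.31, adjusted p 0.0095), Dppa5a in the homodimer line, Klf2 (0.22, adjusted p 0.043) and Tfcp2l1 (0.46, adjusted p 0.0042) with the TCF3 label, and Klf5 (-0.66, adjusted p 2.0e-05) and Prdm14 (-1.63, adjusted p 0.024) in the TCF4 line.

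The profiles of the 10 genes were set side by side as centred log2(CPM + 0.5) group means over the 7 groups, with the root mean square difference as the measure of likeness. The 36 pairs without Nanog differed by 0.138 to 0.764 with a median of 0.391. The closest pair was Klf5 and Tfcp2l1. The 9 pairs with Nanog differed by 0.796 to 1.38 with a median of 1.05, so every pair with Nanog was farther apart than every pair without it. Over all 12364 other genes, the median difference was 0.653 from Nanog, 0.464 from Klf2, 0.532 from Dppa5a and 1.11 from Tbx3. Some pairs without Nanog, such as Klf2 and Klf5 (0.56), were thus no closer than Klf2 is to a typical gene. Among 12364 other genes, those most like Nanog were Mogat2 (0.117) and Dclk1 (0.158). Those most like Klf4 were Dab2 (0.0771) and Lgmn (0.0848), and those most like Tbx3 were Fgf10 (0.0859) and Kdelr3 (0.118). Klf2 was nearest to Stac2 (0.0928) and Accsl (0.0997), Klf5 to Prss12 (0.125) and Vegfa (0.142), and Esrrb to Platr7 (0.15) and Tcl1 (0.187). Tfcp2l1 was nearest to Mmp3 (0.166) and Mreg (0.173), Zfp42 to Lgals2 (0.115) and Rusc2 (0.116), Dppa5a to Fam25c (0.07) and Aplp1 (0.137), and Prdm14 to Gpa33 (0.111) and Atp6v0a4 (0.157). Without sample 1 of the TCF12-labelled group, a setting chosen after seeing the data, 11 of these 20 genes were still among the nearest 2 of their gene. Both were for Nanog and Tfcp2l1 and neither was for Esrrb, whose nearest were then Gtsf1l (0.155) and Jam2 (0.161). Dppa5a was then nearest to Irak3 (0.0504) and Fam25c (0.0798). Every pair with Nanog was also farther apart then (0.814 or more) than every pair without it (0.756 or less). The profile of Dab2, an endocytic adaptor of the primitive endoderm, had group means of 111 CPM in parental cells, 361 CPM in the untreated monomer line and 59.8 CPM in the TCF4 line.

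Of 12 other naive and ground state genes, 9 rose and none fell in the untreated monomer line. They included Gbx2 (2.00 ± 0.35), Nr0b1 (1.77 ± 0.13), Fgf4 (1.33 ± 0.08) and Tet2 (1.31 ± 0.29, adjusted p 0.0029). In the TCF3-labelled samples 4 rose and 2 fell, in the TCF4 line none rose and 5 fell, and in the TCF12-labelled samples none rose and 6 fell. Their medians were 1.15, 0.42, -0.41 and -0.61 in that order. Of 10 core pluripotency genes, 4 rose and 2 fell in the untreated monomer line with a median of 0.16, and none rose and 4 fell in the TCF4 line with a median of -0.11. For the induced monomer 5 rose and 3 fell (median 0.25), in the homodimer line 2 rose and 3 fell (0.13), in the TCF3-labelled samples none rose and 5 fell (-0.21), and in the TCF12-labelled samples 1 rose and 3 fell (-0.06). Pou5f1 had group means of 419 to 619 CPM over the 7 groups.

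Of 11 formative and primed genes, which mark the epiblast after it leaves the naive state, 3 rose and 3 fell in the untreated monomer line and 1 rose and 6 fell in the TCF4 line. Their medians were -0.21 and -0.42, both below 0. In the TCF3-labelled samples none of these rose and 6 fell (median -0.57), among them Fgf5 (-1.83 ± 0.10), Zic2 (-1.46 ± 0.12) and Dnmt3b (-1.34 ± 0.15). In the TCF12-labelled samples, where no naive gene rose, 1 rose and 6 fell (-0.32). For the induced monomer 2 rose and 4 fell (-0.23), and in the homodimer line none rose and 4 fell (-0.29). Of 8 genes of the LIF and STAT3 pathway, 3 rose in the untreated monomer line: Bcl3 (1.65 ± 0.17), Stat3 (0.76 ± 0.09) and Pim3 (0.38 ± 0.10). In the TCF3-labelled samples 4 rose: Socs3 (1.89 ± 0.20), Stat3 (0.64 ± 0.09), Jak1 (0.54 ± 0.12) and Il6st (0.43 ± 0.13). Socs3, the feedback inhibitor, was the gene of this list that rose in the TCF4 line (1.03 ± 0.21, adjusted p 0.0017). Of 4 genes of the Wnt arm, Axin2, a target of the pathway, was the 1 that changed and fell in all 6 comparisons with parental cells, by 2.01 in the untreated monomer line and 1.04 in the TCF4 line on the log2 scale. Of 11 other Krueppel-like genes tested, 1 rose in the untreated monomer line (Klf10, 0.51 ± 0.11) and 1 fell in the TCF4 line (Klf16, -0.31 ± 0.08). Both counts are near the shares of all genes, 10.5% rising and 5.67% falling, and are not read as a family trait. For the induced monomer 4 of the 11 rose and none fell, and in the homodimer line 1 rose and none fell. In the TCF3-labelled samples 3 rose and 2 fell, and in the TCF12-labelled samples 1 rose and 5 fell.

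**Figure D5:**
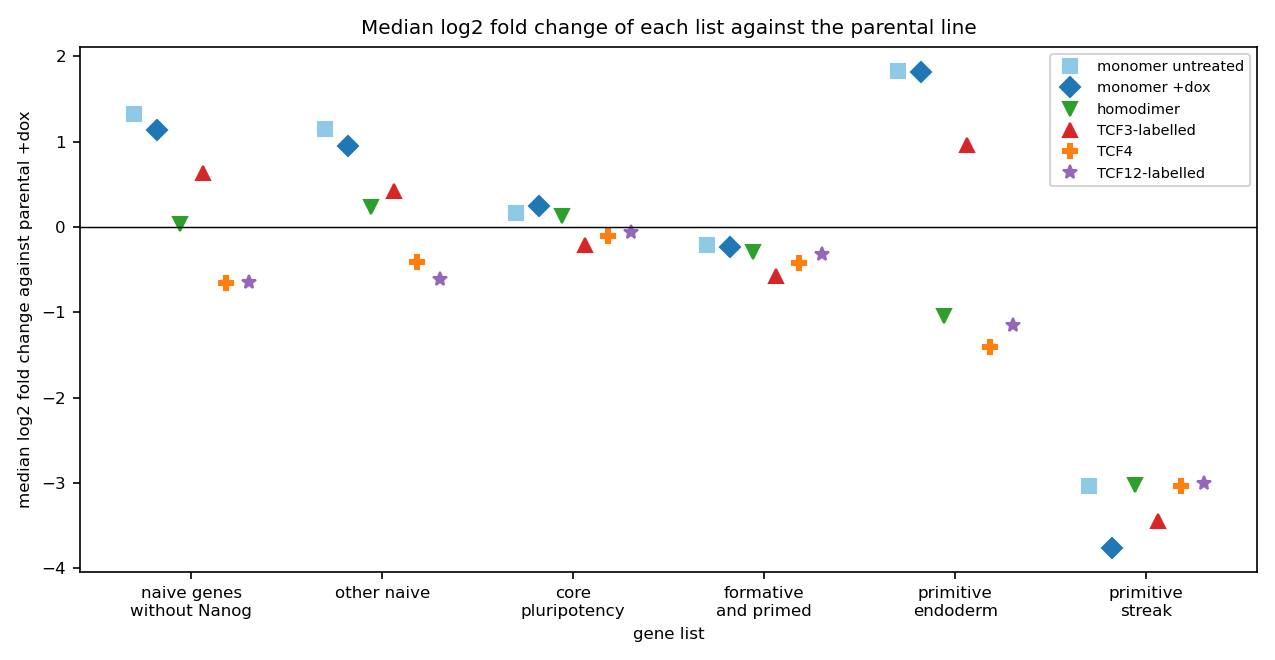
Median log2 fold change against parental cells (vertical) of 6 gene lists (horizontal), 1 point per comparison with parental cells. The naive genes without Nanog and the other naive genes have positive medians in the monomer line (1.32 and 1.15 untreated) and negative ones in the TCF4 line (-0.66 and -0.41), the primitive endoderm list goes from 1.83 to -1.41, and the primitive streak list is at -3.00 or lower throughout.

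Most markers of the primitive endoderm, the other early lineage that embryoid bodies form, moved with these genes outside the homodimer line. The summed level of Gata4, Gata6, Sox17, Sox7, Pdgfra, Dab2 and Foxa2 was 173.4 to 191 CPM in parental cells and 555.8 to 645.1 CPM in the untreated and 514.7 to 560.7 CPM in the induced monomer line. It was 329.6 to 380.1 CPM in the TCF3-labelled samples, 108.6 to 125.1 CPM in the homodimer line, 92.44 to 97.98 CPM in the TCF4 line and 100.3 to 126.1 CPM in the TCF12-labelled samples. All 7 markers were detected in every group. Of the 7, 6 rose and none fell in the untreated monomer line, 6 rose and 1 fell in the TCF3-labelled samples, none rose and 7 fell in the homodimer line, and none rose and 6 fell in the TCF4 line. In the TCF12-labelled samples 1 rose and 6 fell. Dab2 made up the largest part of the sum, with 111.2 CPM in parental cells and 360.9 CPM in the untreated monomer line. Pdgfra had means of 9.368 CPM in parental cells, 12.83 CPM in the TCF4 line and 16.29 CPM in the TCF12-labelled samples. Foxa2 stood at 13.14 CPM in parental cells, 15.63 CPM in the untreated monomer line and 7.39 CPM in the TCF3-labelled samples. The part of the 7 markers in the levels of the 9 genes other than Nanog was not tested. The homodimer line departed from this parallel, since Esrrb and Zfp42 rose there while all 7 markers fell. The epiblast markers Fgf5, Otx2, Pou5f1 and Pou3f1 summed to 732.4 to 760.5 CPM in the TCF3-labelled samples and to 881.8 to 1122 CPM in the other samples. Mesoderm and mesenchyme markers summed to 13.33 to 38.96 CPM in the 3 E-protein groups and to 5.2 to 6.891 CPM elsewhere, and 5 of 6 rose in each E-protein group against parental cells, with Meox2 at 0 in parental cells and Hand2 and Meox2 at 0 in the untreated monomer line. Fibroblast markers summed to 72.55 to 88.93 CPM in the TCF3-labelled samples, 54.49 to 56.28 CPM in the TCF12-labelled samples and 36.76 to 47.2 CPM elsewhere, and of 5 tested 3 rose and 1 fell in the TCF3-labelled samples. Neural markers summed to 135.4 to 144.1 CPM in parental cells, 62.02 to 79.1 CPM in both monomer groups, 82.27 to 87.75 CPM in the TCF3-labelled samples, 84.15 to 86.22 CPM in the homodimer line, 113.3 to 134.5 CPM in the TCF4 line and 111.4 to 125.7 CPM in the TCF12-labelled samples. Nes made up most of the neural sum, with a mean of 136.1 CPM in parental cells. Pax6 had another order, with means of 2.956 CPM in parental cells and 1.855 CPM in the untreated monomer line. It stood at 7.723 CPM in the homodimer line, 4.602 CPM in the TCF4 line and 6.876 CPM in the TCF12-labelled samples. Of 2 neural markers tested, 1 fell and none rose in both monomer groups and in the TCF3-labelled samples. In the homodimer line and the TCF12-labelled samples 1 rose and 1 fell, and none changed in the TCF4 line. The part of both lists in the levels of the 10 genes was not tested. Trophoblast markers summed to 112.8 to 208.2 CPM, and the trophoblast factor Elf5 was at 0 in 5 of the 7 groups.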

How the data were processed

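RNA-seq libraries (TruSeq mRNA kit) were deposited by the authors as unscaled counts for each symbol, in 1 table for every sample. FastQC, TopHat2 and HTSeq are named in the submitters' processing notes, with the builds mm10 and GRCm38. Versions, annotation, strand setting and the treatment of reads with several matches are not given in the sources used here, so reads shared with copies or antisense genes cannot be told apart. In 18 tables, a set of 25 symbols had become calendar dates, while the 3 TCF12-labelled tables keep them. None of the 10 genes is affected, and that difference in handling and the TCF12 label cannot be told apart. No 2 tables were identical.

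From the deposited counts, all 21 samples were fitted together with 1 mean per group in edgeR 4.0.16 (limma 3.58.1, R 4.3.3), with TMM factors and filterByExpr (count of 10, total of 15), which kept 14311 genes. Prdm14 passed that filter through its higher groups. The quasi-likelihood F-test was used, p-values were adjusted over all tested genes (Benjamini-Hochberg, threshold 0.05), and standard errors were derived from F. The script was tested on simulated data. CPM use full totals and TMM factors. A floor of 3 counts corresponds to 0.188 to 0.451 CPM. Intervals cover counting error only, since reads carry no molecular identifiers. Gene positions and exon lengths are from GENCODE M21 (GRCm38).

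All 10 genes were tested in every comparison of the fit of all samples, and in some comparisons only part of them are named. For other lists up to 4 genes past the threshold with the largest changes are named, and for each of the 10 the 2 most alike among tested genes that average 1 CPM or more and have a named symbol. The genes and lists were chosen with earlier results of these data known. Alternatives were RLE factors, library size alone, all genes unfiltered, a filter of 1 CPM in 3 samples, DESeq2 1.42.0, a fit of the groups compared alone, the replicate number as a block, and leaving out each sample.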

Additional observations from a re-analysis of the deposited data

Results flagged for a closer look

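For 6 of the 10 genes, 2 construct lines moved in opposite directions from parental cells, each past the threshold, and the direct test between those lines also passed (edgeR, all adjusted). The same held for 476 of the 14311 genes tested (3.33%). This is what drew attention to the differences listed here, all as log2 fold changes. For Klf4 the TCF4 line stood at -2.34 and the TCF12-labelled samples at -1.99 against the induced monomer line. The TCF3-labelled samples exceeded the TCF4 line in Klf4 by 1.91 and the TCF12-labelled samples by 1.56. For Esrrb the same 4 differences were -1.47, -1.78, 1.33 and 1.65, and for Zfp42 they were -1.59, -1.56, 1.05 and 1.03. For Tbx3 they were -2.90, -2.26, 2.31 and 1.68, and the homodimer line stood at -2.60 against the induced monomer line. Klf5 differed between the TCF12 label and the induced monomer line by -2.52, and between the TCF3 and TCF12 labels by 1.70. Tfcp2l1 stood at -1.93 in the TCF4 line and -2.28 in the TCF12-labelled samples against the induced monomer line.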

How the results depend on the processing

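None of the results changed direction while past the threshold on either side. In a fit of the groups compared alone, the number of the 10 genes past the threshold was 3 for induction within the monomer line in place of 0 (682 in place of 286 over all genes), and 9 for the homodimer against the induced monomer in place of 5 (4813 in place of 2642). It was 5 for the TCF3 against the TCF12 label in place of 8 (236 in place of 2686), 3 for the E-protein groups against the homodimer in place of 5 (1310 in place of 2007), and 0 for the TCF12 label against the TCF4 dimer in place of 2 (0 in place of 464). For the TCF12 label against parental cells it was 1 of 9 genes tested (Nanog) in place of 9 (824 in place of 3864). With library size only, it was 3 in place of 5 for the TCF3 label against the induced monomer (over all genes 2966, not 3162). For the TCF12 label against the TCF4 dimer it was 1 in place of 2 (306 in place of 464). The cause was not tested. Leaving out each sample in turn gave 0 to 3 for induction, 2 to 5 for the homodimer and 4 to 9 for the TCF4 dimer against parental cells. Against the induced monomer it gave 5 to 8 for the homodimer and 3 to 6 for the TCF3 label. It gave 0 to 6 for the TCF12 label against the TCF4 dimer (6 without TCF12 sample 3, 0 without TCF4 sample 2 or 3) and 3 to 7 for the E-protein groups against the homodimer. The count for the homodimer against parental cells was 2 without parental sample 1 or homodimer sample 2, and for the TCF4 dimer 4 without parental sample 2. For the homodimer, calls over all genes without parental sample 1 were 946 in place of 1265. For the TCF4 dimer without parental sample 2 they were 1249 in place of 1839. The highest counts for induction, the homodimer and the TCF4 dimer were those without TCF12 sample 1. The share of all genes called there went from 2.00% to 6.17%, 8.84% to 20.4% and 12.9% to 28.1% in that order. Replicate numbers are shared by all groups. Deviations from group means had a mean correlation of 0.0214 over 63 same-numbered pairs (-0.221 to 0.344) and -0.0102 over 126 others. Of the 21 samples, 12 correlated best with their own number. Whether the numbers pair the samples was not tested, and the main fit used no pairing. With the replicate block, 156 of 160 results kept their side of the threshold and 3 passed in addition. In that fit 1 was lost (Klf4 in the TCF3 label against the induced monomer, adjusted p 0.057). The count there was 8 in place of 7 for the TCF3 label against parental cells (4092 in place of 4057 over all genes). Prdm14 is limited by depth, with 0 to 22 counts per sample.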
